A study of Mus musculus with 11 samples.

Results

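The secondary and tertiary neutrophil granule genes examined here are Ltf, Camp, Ngp, Lcn2, Mmp8, Mmp9, Itgb2l, Chil3 and Retnlg. They were chosen by mouse symbol, each matching 1 Ensembl identifier, and make up 9 of the 51912 genes in the table of raw counts. All 9 passed the filter on low counts. RNA-seq counts of 11 samples of lineage-negative C57BL/6 mouse bone marrow were available, transduced by retrovirus with human oncogenes to ask how the order of 2 leukemia mutations affects the cells. CSF3R-only cells (n = 4) carried CSF3R T618I, an activated G-CSF receptor, in a constitutive vector with an empty inducible vector. CSF3R-first cells (n = 3) carried the same constitutive receptor with CEBPA V314VW, a mutant of the C/EBPα transcription factor, in the inducible vector. CEBPA-first cells (n = 4) carried constitutive CEBPA V314VW with inducible CSF3R T618I. Marrow in all groups carried a tamoxifen-activated Cre at Rosa26, was transduced in medium with IL-3, IL-6 and SCF, and was sorted as lineage-negative and positive for both vector markers. It was then kept for 48 hours without added cytokine in 4-hydroxytamoxifen, which switches on the second vector. Each group was therefore designed to express mutant CSF3R by the end of culture, and no group without an oncogene or with CEBPA V314VW alone was analysed here. CEBPA-first differed from CSF3R-only in carrying CEBPA V314VW and also in the vector and timing of CSF3R T618I. These differences cannot be told apart here.

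Neutrophils fill their granules in sequence as they mature. Primary granules, with myeloperoxidase and serine proteases, form at the promyelocyte stage, secondary granules with lactoferrin follow in myelocytes and metamyelocytes, and tertiary granules rich in gelatinase come last. The secondary granule genes are known as targets of C/EBPε, a relative of C/EBPα that acts late in the lineage. Most of these genes are therefore read as signs of how far a neutrophil precursor has matured, while Chil3 is also made by early neutrophil precursors and macrophages.

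The 5′ flanks of 4 members are shown because they cover the range of responses described below. In the comparisons with CSF3R-only, Ltf and Ngp fell strongly, Mmp8 changed least among the 9 members and Chil3 changed in the opposite direction. The sequences come from the RefSeq promoter table on GRCm38.p6, read on the gene's own strand and ended before the first annotated exon base. Capitals mark matches to TTGCNNAA or its other strand TTNNGCAA, letters bound by C/EBP factors, or to TTCNNNGAA, letters bound by STAT factors downstream of the G-CSF receptor.
Ltf, chr9:111019042-111019270, plus strand: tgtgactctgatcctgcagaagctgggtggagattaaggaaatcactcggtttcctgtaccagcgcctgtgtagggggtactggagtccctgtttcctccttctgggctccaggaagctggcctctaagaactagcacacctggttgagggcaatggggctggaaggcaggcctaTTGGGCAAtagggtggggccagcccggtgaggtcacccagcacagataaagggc
Ngp, chr9:110419558-110419746, plus strand: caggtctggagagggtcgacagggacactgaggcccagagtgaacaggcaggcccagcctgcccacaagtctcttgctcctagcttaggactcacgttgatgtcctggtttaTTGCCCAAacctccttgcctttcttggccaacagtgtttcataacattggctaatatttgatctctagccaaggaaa
Mmp8, chr9:7558179-7558428, plus strand: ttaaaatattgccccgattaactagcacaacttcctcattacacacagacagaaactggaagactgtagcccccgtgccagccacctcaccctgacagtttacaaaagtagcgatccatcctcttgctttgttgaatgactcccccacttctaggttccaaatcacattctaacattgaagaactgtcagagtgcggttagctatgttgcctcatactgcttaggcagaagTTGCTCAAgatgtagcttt
Chil3, chr3:106167565-106167814, minus strand: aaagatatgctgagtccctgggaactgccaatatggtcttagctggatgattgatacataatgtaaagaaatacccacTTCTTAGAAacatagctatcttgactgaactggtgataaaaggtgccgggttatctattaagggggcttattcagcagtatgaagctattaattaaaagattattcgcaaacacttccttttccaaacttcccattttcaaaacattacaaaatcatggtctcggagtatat

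Across the window from 250 bases before to 50 after each start, 8 of the 9 members had an entry, and Mmp9 had none. These starts are those of the RefSeq table and can differ from the gene positions given below. For Lcn2 the 250 bases before the start (chr2:32387740-32387989) lie inside the gene as positioned below. A second C/EBP match of Ngp, at -11 from its start, lies beyond the printed sequence. The C/EBP letters occurred in 5 of these 8 windows (Ltf, Ngp, Lcn2, Mmp8 and Retnlg), against 10.8% of all 32851 promoters in the table. The STAT letters occurred in 1 window, that of Chil3, against 8.3% of all promoters. The ETS letters GAGGAA, bound by factors such as PU.1, occurred in 4 windows (Ltf, Lcn2, Mmp8 and Itgb2l) against 28.3%, and the RUNX letters TGTGGT in 1 (Ltf) against 16.8%. Camp held none of the 4 motifs searched, on both strands.

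Total counts per sample ranged from 47905747 to 72268346, and 3 counts corresponded to 0.0383 to 0.0648 CPM, so every member was measured far above the counting limit except Camp in CEBPA-first cells, which rested on 25 to 51 counts. CPM here are read counts per 1000000 after TMM scaling, a correction of library sizes for differences in composition. The labels do not state whether replicates came from separate animals or cultures, so p-values measure only the spread between these samples. Ptprc, the pan-leukocyte marker, was at a mean of 584.8 to 1134 CPM in the 3 groups, whereas the T cell and NK cell genes Cd3e and Ncr1 had no count in any sample. The study's methods name female mice of 6 to 20 weeks for its experiments as a whole and a narrower range for marrow donors, but Y-linked Ddx3y had 3527 to 5962 counts in every library and Xist had 0 to 4. Every library thus had the pattern of male cells. CSF3R-first replicate A stood apart. It was the highest of the 3 CSF3R-first samples for 9 of 9 members, and its summed level of 12 mature neutrophil markers was 16678 CPM against 10056 and 11548 CPM in replicates B and C. Its summed monocyte and macrophage markers (14 genes) were also highest, at 6875 against 4132 and 5103 CPM, whereas its erythroid and megakaryocyte markers (8 genes) were lowest, at 385.0 against 449.4 and 698.6 CPM. The part of these differences in the results was not tested, and values without replicate A are given below.

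Secondary and tertiary granule genes separated the 3 groups in 1 order with 2 exceptions. Ltf, Camp, Ngp, Lcn2, Itgb2l, Mmp9 and Retnlg were highest in CSF3R-only, lower in CSF3R-first and lowest in CEBPA-first cells. Mmp8 was high in every sample, and Chil3 was higher with CEBPA V314VW in either order. A gene was called at an edgeR adjusted p under 0.05 with a log2 fold change of at least 1 in either direction. In CSF3R-first against CSF3R-only, 7 of 9 members were called lower, where 4.53% of the 15703 genes tested were called lower, and 1 was called higher, where 2.13% were. CEBPA-first against CSF3R-only also gave 7 members lower and 1 higher, beside 19.0% and 8.07% of all tested genes. In CEBPA-first against CSF3R-first, 7 members were lower and 0 higher, beside 10.3% and 2.57%. That count of 0 in edgeR was also 0 at an unadjusted p under 0.05 and in DESeq2. The samples of the groups did not overlap, with the first group lower, for 7, 8 and 7 members in these comparisons, where 21.4%, 34.5% and 24.8% of all tested genes showed the same. The median log2 fold change of the 9 members was -2.02, -5.05 and -1.98 in these 3 comparisons, and that of all tested genes was -0.02, 0.00 and 0.00. The comparisons share samples and are not independent of each other.

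**Figure D1:**
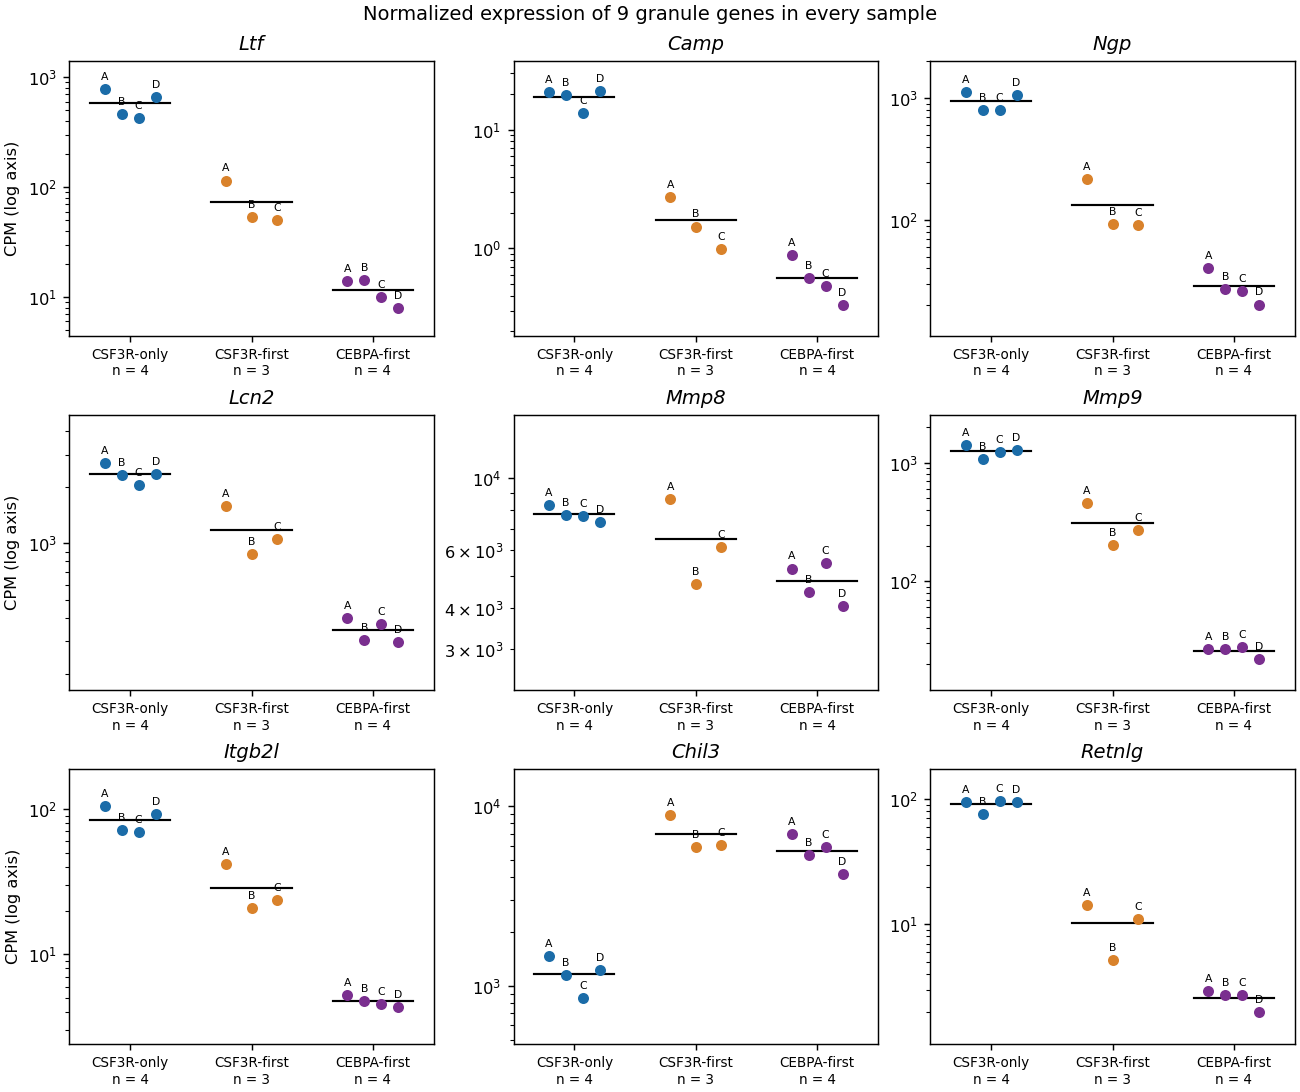
Normalized expression of each member in every sample, as TMM-scaled CPM on a log axis that differs between panels. Points are single samples with their replicate letter and black lines are arithmetic group means. In 7 panels the groups descend without overlap, Mmp8 lies between 4050 and 8641 CPM throughout, and Chil3 is lowest in CSF3R-only.

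Ltf, Camp and Ngp lie close together on chromosome 9 (GRCm38) and were among those that fell most. Ltf (ENSMUSG00000032496, chr9:111019271-111042767, plus strand) encodes lactoferrin, the iron-binding protein that defines secondary granules. Its CPM was 777.6, 460.5, 428.9 and 659.3 in CSF3R-only replicates A to D. CSF3R-first replicates A to C had 114.8, 53.1 and 50.2 CPM, and CEBPA-first replicates A to D had 14.0, 14.2, 10.0 and 8.03 CPM. The lowest CSF3R-only sample was therefore above every CSF3R-first sample, and each of those was above every CEBPA-first sample. Against CSF3R-only, Ltf fell 8.01-fold in CSF3R-first (log2 fold change -3.00, SE 0.33, edgeR adjusted p = 4.2e-05). The fall in CEBPA-first was 50.4-fold (log2 fold change -5.65, SE 0.34, edgeR adjusted p = 1.7e-08), and CEBPA-first was 6.29-fold below CSF3R-first (edgeR adjusted p = 3.1e-05).

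Camp (ENSMUSG00000038357, chr9:109847379-109849617, minus strand) encodes the cathelicidin precursor, an antimicrobial peptide stored in the same granules. It was a weakly expressed member, with 20.8, 19.5, 13.7 and 20.97 CPM in CSF3R-only replicates A to D. In CSF3R-first replicates A to C it had 2.70, 1.53 and 0.980 CPM, and in CEBPA-first replicates A to D 0.873, 0.563, 0.480 and 0.332 CPM. The gap between the last 2 groups was narrow, from 0.873 to 0.980 CPM. Camp fell 10.9-fold in CSF3R-first (log2 fold change -3.45, SE 0.32, edgeR adjusted p = 1.2e-05) and 33.8-fold in CEBPA-first (log2 fold change -5.08, SE 0.32, edgeR adjusted p = 2.8e-08). The direct comparison of the mutation orders gave 3.09-fold lower Camp in CEBPA-first (95% confidence interval of the log2 fold change -2.40 to -0.86, edgeR adjusted p = 0.0026).

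Ngp (ENSMUSG00000032484, chr9:110419747-110423012, plus strand) encodes neutrophilic granule protein, a cystatin-like component of mouse granules. CSF3R-only replicates A to D had 1118, 805.1, 803.5 and 1060.2 CPM. The CSF3R-first samples had 214.9, 91.9 and 91.1 CPM and the CEBPA-first samples 40.1, 27.3, 26.3 and 20.2 CPM. Replicate A was more than double the other CSF3R-first samples, yet far below the lowest CSF3R-only sample. The fall was 7.14-fold in CSF3R-first (edgeR adjusted p = 5.1e-05) and 33.2-fold in CEBPA-first (edgeR adjusted p = 2.7e-08), and CEBPA-first was 4.65-fold below CSF3R-first (edgeR adjusted p = 8.6e-05).

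Between the outer ends of Camp and Ltf, a stretch of 1195389 bases, lie 51 other annotated genes besides Ngp. Of the 23 that were tested, 1 was called lower in CSF3R-first against CSF3R-only, where 4.53% of all tested genes were. CEBPA-first against CSF3R-only gave 9 lower and 3 higher, beside 19.0% and 8.07% of all tested genes, and CEBPA-first against CSF3R-first gave 6 lower, beside 10.3%. The median log2 fold changes of the 23 were -0.14, -0.43 and -0.32. Tmie was the gene called lower in both comparisons with CSF3R-only, at -1.78 and -5.02 on the log2 scale. Cdc25a, a phosphatase that drives the cell cycle, Scap and Smarcc1 were called higher in CEBPA-first, at log2 fold changes of 1.23, 1.08 and 1.01. The other genes called lower there were Als2cl, Gm35715, Gm42432, Lrrc2, Nbeal2, Nradd, Prss50 and Tdgf1.

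Lcn2 (ENSMUSG00000026822, chr2:32384633-32388252, minus strand) encodes lipocalin 2, which withholds iron from bacteria by binding their siderophores. CSF3R-only replicates A to D had 2711, 2320, 2057 and 2371 CPM, CSF3R-first replicates A to C 1596, 878 and 1055 CPM, and CEBPA-first replicates A to D 399.3, 303.9, 370.6 and 295.5 CPM. The fall in CSF3R-first was 2.01-fold (log2 fold change -1.01, SE 0.18, edgeR adjusted p = 0.0011), so close to the fold threshold that the call was lost with library size scaling (log2 fold change -0.93), without the count filter (-0.96), with only the compared groups fitted (-0.99) or in DESeq2 (-0.998). It was also lost without CSF3R-only replicate A (-0.94) or CSF3R-first replicate B (-0.83) or C (-0.92), and the adjusted p passed each time. In CEBPA-first Lcn2 fell 6.91-fold against CSF3R-only (log2 fold change -2.79, SE 0.18, edgeR adjusted p = 2.8e-08) and was 3.44-fold below CSF3R-first (edgeR adjusted p = 9e-06).

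Itgb2l (ENSMUSG00000000157, chr16:96422288-96443619, minus strand) encodes an integrin beta chain related to Itgb2 and found in mouse neutrophils. CSF3R-only samples ranged from 69.5 to 104.2 CPM, CSF3R-first samples from 20.9 to 41.7 CPM and CEBPA-first samples from 4.37 to 5.24 CPM. The CEBPA-first samples were close together, with an SD of 0.378 around a mean of 4.74 CPM. Itgb2l fell 2.94-fold in CSF3R-first (edgeR adjusted p = 0.00019) and 17.8-fold in CEBPA-first (edgeR adjusted p = 6.2e-09). Between the mutation orders it was 6.05-fold lower in CEBPA-first (edgeR adjusted p = 2.4e-06).

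Mmp8 (ENSMUSG00000005800, chr9:7558456-7568485, plus strand) encodes neutrophil collagenase, which is also a secondary granule protein. Its group means descended in the same order as those of the 7 falling members, by less than 2-fold. CSF3R-only replicates A to D had 8274, 7719, 7634 and 7341 CPM. The CSF3R-first samples spanned the widest range, with 8641, 4751 and 6159 CPM in replicates A to C, and CEBPA-first replicates A to D had 5282, 4477, 5487 and 4050 CPM. CSF3R-first therefore overlapped both other groups, while all CEBPA-first samples were below all CSF3R-only samples. The CSF3R-first difference was not called (log2 fold change -0.25, 95% confidence interval -0.61 to 0.12, edgeR adjusted p = 0.26). Without replicate A it was -0.50 with an edgeR adjusted p of 0.0062, still under the fold threshold. In CEBPA-first against CSF3R-only the level was 1.60-fold lower (log2 fold change -0.68, 95% confidence interval -1.02 to -0.35, edgeR adjusted p = 0.0015), which passed the adjusted p and missed the fold threshold. Against CSF3R-first it was 1.35-fold lower (edgeR adjusted p = 0.046), a p that was over 0.05 in 9 of the 11 fits that left out 1 sample (0.0045 to 0.31, the highest without CSF3R-first replicate A) and 0.079 with only the compared groups fitted.

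Mmp9 (ENSMUSG00000017737, chr2:164940780-164955850, plus strand) encodes gelatinase B, the enzyme that defines tertiary granules. It had 1402, 1068, 1234 and 1284 CPM in CSF3R-only replicates A to D and 453.5, 202.9 and 268.5 CPM in CSF3R-first replicates A to C. CEBPA-first replicates A to D had only 26.8, 27.0, 28.0 and 21.8 CPM. Mmp9 fell 4.05-fold in CSF3R-first (log2 fold change -2.02, SE 0.22, edgeR adjusted p = 3.8e-05) and 48.2-fold in CEBPA-first (log2 fold change -5.59, SE 0.23, edgeR adjusted p = 9.7e-10). Among the 9 members it differed most between the mutation orders, being 11.9-fold lower in CEBPA-first than in CSF3R-first (log2 fold change -3.57, 95% confidence interval -4.05 to -3.10, edgeR adjusted p = 2e-07).

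Retnlg (ENSMUSG00000022651, chr16:48872621-48874496, plus strand) encodes a small secreted resistin-like protein of mouse neutrophils. In CSF3R-only replicates A to D it had 95.38, 76.29, 96.05 and 95.15 CPM, in CSF3R-first replicates A to C 14.31, 5.232 and 11.04 CPM, and in CEBPA-first replicates A to D 2.927, 2.711, 2.746 and 2.005 CPM. The 3 groups were well apart, although replicate B was low in both CSF3R groups. Retnlg fell 8.89-fold in CSF3R-first (edgeR adjusted p = 3.6e-06) and 35.2-fold in CEBPA-first (edgeR adjusted p = 4e-09), and was 3.95-fold lower in CEBPA-first than in CSF3R-first (edgeR adjusted p = 7.4e-05).

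Chil3 (ENSMUSG00000040809, chr3:106147554-106167564, minus strand) encodes the chitinase-like protein Ym1 and was the member that rose. CSF3R-only replicates A to D had 1457, 1142, 854.8 and 1215 CPM. CSF3R-first replicates A to C had 8893, 5916 and 6061 CPM, and CEBPA-first replicates A to D had 6976, 5307, 5934 and 4195 CPM. Every sample with CEBPA V314VW was thus above every CSF3R-only sample, and the 2 mutation orders overlapped. Chil3 rose 5.96-fold in CSF3R-first (log2 fold change 2.58, SE 0.21, edgeR adjusted p = 3.2e-06) and 4.80-fold in CEBPA-first (log2 fold change 2.26, SE 0.20, edgeR adjusted p = 4.1e-07). Between the orders the log2 fold change was -0.31 with a 95% confidence interval from -0.75 to 0.12 (edgeR adjusted p = 0.22), an interval that allows CEBPA-first to be moderately lower than CSF3R-first.

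**Figure D2:**
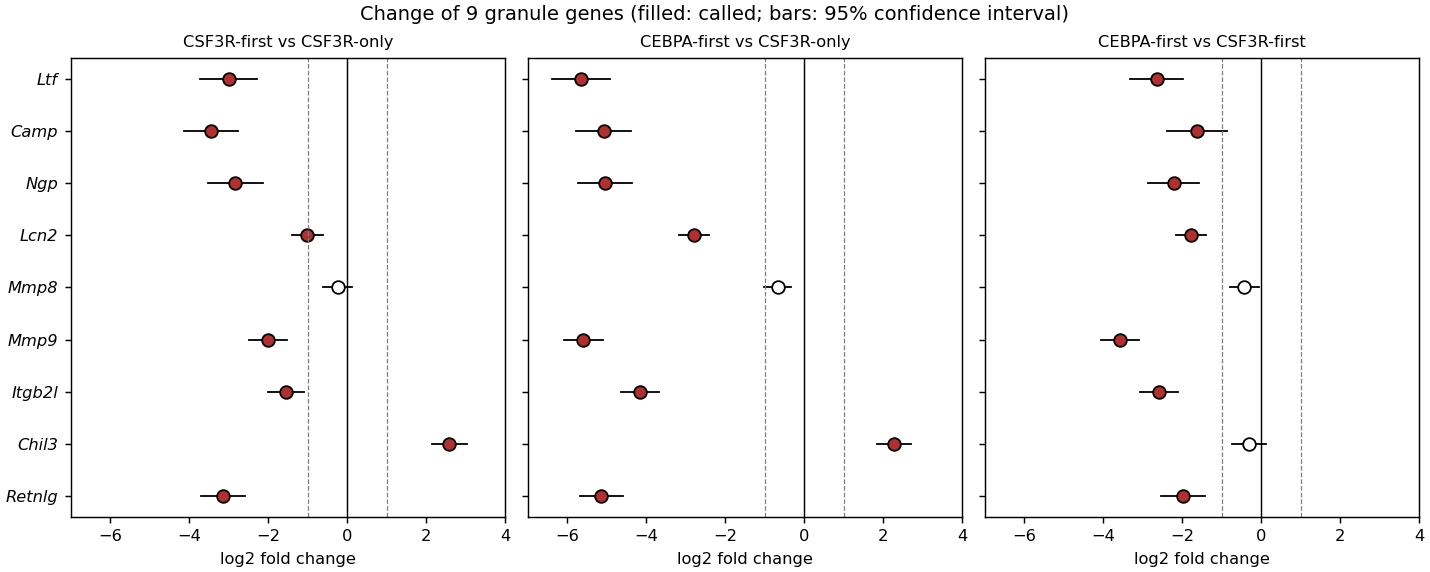
Log2 fold changes of the 9 members in the 3 comparisons, with 95% confidence intervals as bars. Filled points were called at an edgeR adjusted p under 0.05 with a log2 fold change of at least 1, marked by dashed lines. Chil3 lies to the right of 0 in both comparisons with CSF3R-only, and Mmp8 is open in all 3 panels.

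As a check on single values, two-sided exact permutation tests of log2 CPM gave p = 0.0286 for the 7 falling members and Chil3 in both comparisons with CSF3R-only, the smallest value these group sizes allow. In CEBPA-first against CSF3R-first the exact permutation p was 0.0286 for 6 members (Ltf, Ngp, Lcn2, Mmp9, Itgb2l and Retnlg), 0.0571 for Camp, 0.143 for Mmp8 and 0.343 for Chil3. For Mmp8 it was 0.257 in CSF3R-first and 0.0286 in CEBPA-first against CSF3R-only. Leaving out CSF3R-first replicate A lost no call of a member. The log2 fold changes in CSF3R-first against CSF3R-only then became -3.49 for Ltf, -3.92 for Camp, -3.37 for Ngp, -1.29 for Lcn2, -2.40 for Mmp9, -1.92 for Itgb2l, -3.46 for Retnlg and 2.36 for Chil3. Those in CEBPA-first against CSF3R-first became -2.16 for Ltf, -1.16 for Camp, -1.68 for Ngp, -1.49 for Lcn2, -3.18 for Mmp9, -2.22 for Itgb2l, -1.67 for Retnlg and -0.09 for Chil3.

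How far CSF3R-first had moved towards CEBPA-first was expressed as a position on the log2 CPM scale, with 0 at the CSF3R-only mean and 1 at the CEBPA-first mean. For the 7 members that fell, the position ranged from 0.374 to 0.697, and single samples from 0.201 to 0.833. Mmp9 was at 0.374 ± 0.105, Lcn2 at 0.375 ± 0.158 and Itgb2l at 0.388 ± 0.129 (SD, n = 3). Ltf was at 0.543 ± 0.118 and Ngp at 0.580 ± 0.140, while Retnlg at 0.637 ± 0.147 and Camp at 0.697 ± 0.142 had moved furthest. These SDs overlap between neighbours, and differences between genes were not tested. Chil3 was at 1.14 ± 0.146, beyond the CEBPA-first mean. The position of Mmp8 (0.420 ± 0.625) is uninformative, because its end points are close together and its samples ran from -0.231 to 1.02. Replicate A had the lowest position for 7 of the 7 falling members.

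**Figure D3:**
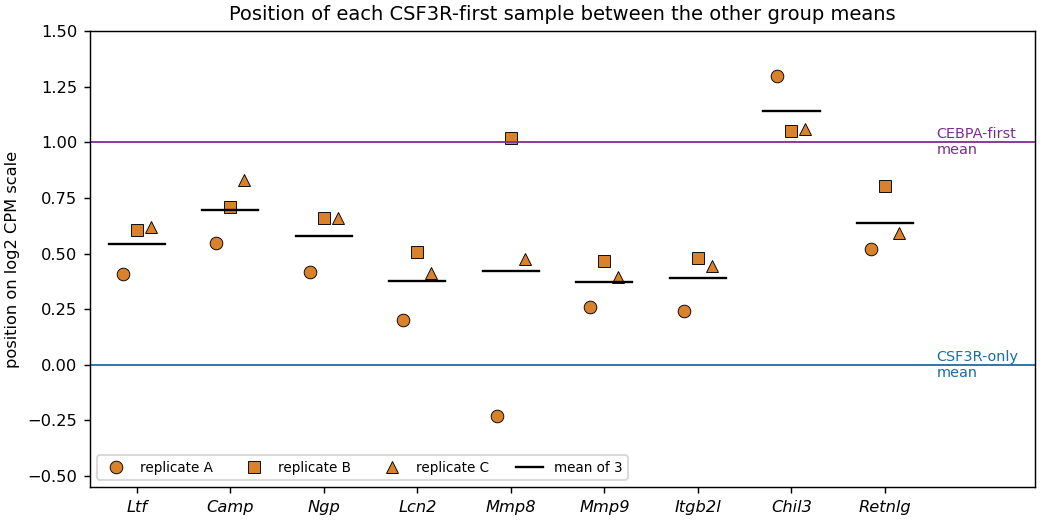
Position of each CSF3R-first sample on the log2 CPM scale between the CSF3R-only mean (0) and the CEBPA-first mean (1), with a black line at the mean of 3 samples. The 7 falling members have means from 0.374 to 0.697, Chil3 lies above 1 and Mmp8 scatters from -0.231 to 1.02.

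Levels of different genes were compared as CPM per kilobase of annotated exon. In CSF3R-only the order was Mmp8 (mean 3192, SD 160.9), Lcn2 (2584, SD 293.7), Ngp (774.8, SD 136.0), Chil3 (758.4, SD 161.0), Mmp9 (392.8, SD 43.6), Ltf (207.6, SD 59.2), Retnlg (153.0, SD 16.2), Itgb2l (29.0, SD 5.71) and Camp (24.7, SD 4.49). Ngp and Chil3 lay within their spread of each other, as did Itgb2l and Camp. In CEBPA-first cells Chil3 led at 3641 CPM per kilobase, with Mmp8 at 1989, Lcn2 at 374.2 and Ngp at 23.3. The remaining 5 members were between 0.741 (Camp) and 8.16 (Mmp9). The balance among the members thus shifted although their summed CPM changed less, with 13192 to 15960 for CSF3R-only samples, 11920 to 19972 for CSF3R-first samples and 8597 to 12747 for CEBPA-first samples. Mmp8 and Chil3 accounted for 8489 to 9731, 10667 to 17534 and 8244 to 12258 CPM of these sums, and the other 7 members for 4703 to 6229, 1254 to 2438 and 352.3 to 489.3 CPM.

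Most other secondary and tertiary granule genes were called lower in CEBPA-first than in either other group. Of the 19 listed genes kept here, 18 were tested, and 10 were called lower, 8 not called and 0 called higher in CSF3R-first against CSF3R-only, with a median log2 fold change of -1.05. The same comparison had 1 gene higher at an unadjusted p under 0.05. In CEBPA-first against CSF3R-only 17 were lower and 0 higher (median -2.60), and in CEBPA-first against CSF3R-first 13 were lower and 0 higher (median -1.62). Neither of these had a gene higher at an unadjusted p under 0.05, and DESeq2 gave the same numbers of calls in the 3 comparisons. Of all tested genes, 4.53%, 19.0% and 10.3% were called lower in these comparisons and 2.13%, 8.07% and 2.57% higher. The same shares apply to the lists below. The formyl peptide receptors Fpr1 and Fpr2, which sense bacterial peptides, had means of 556.8, 166.9 and 6.29 CPM and of 102.0, 36.2 and 2.99 CPM. Means given in threes here and below follow the order CSF3R-only, then CSF3R-first, then CEBPA-first. Their log2 fold changes in CEBPA-first against CSF3R-only were -6.47 and -5.10 (edgeR adjusted p = 1.4e-09 and 3.4e-09). Chil1, a chitinase-like relative of Chil3, was at 830.5, 512.0 and 51.5 CPM and in CEBPA-first fell by 4.01 on the log2 scale (edgeR adjusted p = 2.6e-09). Orm1 was at 0.952, 0.284 and 0.0331 CPM, the last below the value of 3 counts. Slpi, an inhibitor of neutrophil elastase and the 1 gene higher at the unadjusted p in CSF3R-first (log2 fold change 0.57), was the tested gene not called in any comparison, at 272.7, 405.3 and 220.3 CPM, and was named after its values were seen.

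Primary granule genes are made before most of the members in neutrophil development, and 4 serine protease genes of the primary granules were called higher in CEBPA-first against CSF3R-only. Of 10 tested out of the 11 listed genes kept here, 2 were called higher and 0 lower in CSF3R-first against CSF3R-only, at a median log2 fold change of 0.60. At an unadjusted p under 0.05, 2 were lower, Ctsc (log2 fold change -0.51) and Cd63 (-0.23), and DESeq2 called 0 lower. CEBPA-first against CSF3R-only gave 4 higher, while Ctsc and Cd63 had log2 fold changes of -0.63 and -0.31 (edgeR adjusted p = 0.00056 and 0.00094) and were not called. CEBPA-first against CSF3R-first gave 0 in either direction (median 0.20), where 6 passed the adjusted p with smaller changes and DESeq2 also called 0. The serine protease genes Prss57, Prtn3, Ctsg and Elane rose in CEBPA-first by log2 fold changes of 1.98, 1.51, 1.40 and 1.27 (edgeR adjusted p = 1.8e-10, 7.6e-09, 3.1e-08 and 1.2e-07). Mpo was at 1485, 2301 and 2737 CPM. Mpo, Ctsc and Cd63 were named after their values were seen.

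**Figure D4:**
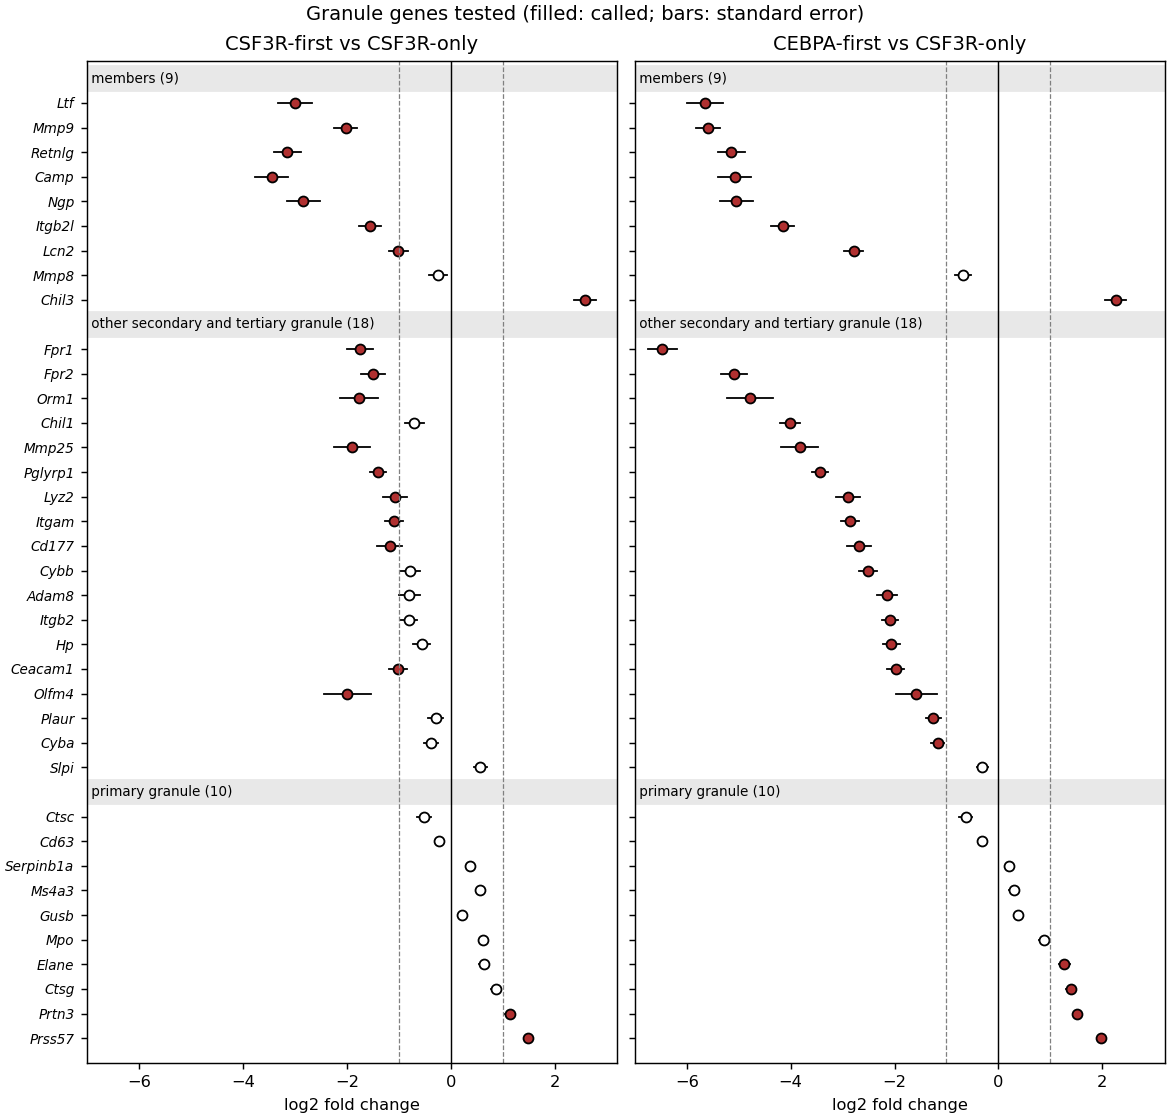
Log2 fold changes of the tested members, other secondary and tertiary granule genes (18) and primary granule genes (10) against CSF3R-only, with standard errors as bars. Filled points were called. Secondary and tertiary granule genes lie mostly left of 0 and extend to -6.47 in CEBPA-first, whereas the serine proteases Prss57, Prtn3, Ctsg and Elane lie right of 0.

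Among 11 tested regulators of granulocyte maturation, none was called in CSF3R-first against CSF3R-only by edgeR or DESeq2, where 10 passed the adjusted p and the unadjusted p with smaller changes. Cebpe, the late C/EBP factor, was at 57.6 ± 5.32, 40.0 ± 9.91 and 27.5 ± 2.25 CPM (SD, n = 4, 3 and 4), and its fall was called in CEBPA-first (log2 fold change -1.07, edgeR adjusted p = 5.9e-06). Cebpb and Cebpd were also called lower in CEBPA-first (log2 fold changes -1.69 and -1.48), as was Csf3r (-2.46), at 846.5, 516.1 and 153.5 CPM. Myb, a progenitor factor, was called higher (1.62). Gfi1, a repressor needed for neutrophil production, was at 23.7, 31.6 and 44.5 CPM and Cebpa at 87.2, 130.6 and 166.6 CPM, with neither called. Whether reads of the human CSF3R and CEBPA transgenes were counted on the mouse genes was not tested.

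Of 12 mature neutrophil markers, 7 were called lower in CSF3R-first and 12 in CEBPA-first, each against CSF3R-only, and 12 were lower in CEBPA-first than in CSF3R-first. DESeq2 called 6, 12 and 12 lower in these comparisons. The largest falls in CEBPA-first against CSF3R-only were those of Fpr1, Cd101 (log2 fold change -4.99), Stfa2l1 (-4.91) and Il1b (-4.89). In these bulk samples, fewer maturing neutrophils and less of each transcript per cell cannot be told apart. Markers of other cell types moved as well. Of 14 monocyte and macrophage markers, 1 was called lower in CSF3R-first and 11 in CEBPA-first against CSF3R-only, led by Marco (-4.96), Cx3cr1 (-4.46), Cd14 (-2.52) and C1qa (-2.37). The summed level of the 14 nevertheless overlapped, at 5824 to 6419, 4132 to 6875 and 4026 to 5892 CPM, again in that order of groups. F13a1, a coagulation factor subunit made by monocytes, supplied much of this sum, at means of 2577, 3125 and 4007 CPM. Without it the other 13 summed to 3189 to 4030, 1752 to 3085 and 998.9 to 1392 CPM, and the 3 groups did not overlap. F13a1 was named after its values were seen. Eosinophil markers summed to 248.3 to 378.0, 60.9 to 140.8 and 30.5 to 38.8 CPM, with 4 and then 5 of 7 tested genes called lower, among them Prg2, Prg3, Epx and Ear6. DESeq2 called 3 and then 5 of the eosinophil markers lower.

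Erythroid and megakaryocyte markers summed to 948.0 to 1315, 385.0 to 698.6 and 128.9 to 181.0 CPM in the same order, with 4 of 8 called lower in CSF3R-first and 8 in CEBPA-first against CSF3R-only, the latter led by Ppbp, Hba-a1, Gp1bb and Pf4. Mast cell and basophil markers summed to 2113 to 3087, 1307 to 1592 and 1370 to 1800 CPM, and Tpsb2, Mcpt8 and Hdc were called lower in CEBPA-first, where Fcer1a was called higher. Lymphoid markers were low, at sums of 79.5 to 138.2, 47.5 to 77.4 and 48.9 to 64.7 CPM. Of 3 tested, Cd79a and Nkg7 were called lower in CEBPA-first against CSF3R-only. Cd79b was higher there, at means of 3.42, 3.40 and 6.06 CPM, and was not called (log2 fold change 0.82, edgeR adjusted p = 0.0001). Cd79b was named after its values were seen. Stem and progenitor markers were mixed, with 4 higher (Mecom, Hlf, Flt3 and Sox4) and 3 lower (Ly6a, Cd34 and Meis1) of 8 in CEBPA-first. Their sums nevertheless fell without overlap, at 440.2 to 643.4, 302.2 to 330.7 and 172.9 to 184.2 CPM. Ly6a, at means of 401.6, 208.6 and 63.2 CPM, supplied much of these sums. Mecom had the largest change (6.47 on the log2 scale), and Flt3, Sox4 and Meis1 were named after their values were seen. The part of these other cell types in the members' differences was not tested.

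Chil3 is also a marker of alternatively activated macrophages, so the other genes of that list were examined. Mgl2 and Clec10a rose in CEBPA-first against CSF3R-only (log2 fold changes 2.77 and 2.29) from means of 1.03 and 1.53 CPM, whereas Mrc1 was called lower (-1.57). Retnla was at 0.396, 0.0323 and 0.0213 CPM, the last 2 below the value of 3 counts. Chil4, the closest relative of Chil3, had means of 0.0536, 0.398 and 0.242 CPM. The longest match between them that the search kept was 45 bases at 97.8% identity. Chil4 was called higher in both comparisons with CSF3R-only at these very low levels. Whether reads of Chil3 were counted on Chil4 was not tested. Mrc1, Chil4 and the chitinase gene Chit1 were named after their values were seen. The search kept only alignments with at least 97% identity over their whole length. None of 100 bases or more joined a member to another gene. Longer alignments of lower identity were dropped, so near-identical stretches inside them would have been missed. No exon base of a member lay in an exon of another gene.

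Paralogs did not move as the members did in every case. Of 12 tested out of 15, 3 were called lower and 2 higher in CSF3R-first, and 9 lower and 2 higher in CEBPA-first, each against CSF3R-only. Of all tested genes, 4.53% and 2.13% were called lower and higher in CSF3R-first, and 19.0% and 8.07% in CEBPA-first. Chit1, another member of the chitinase family, was the other paralog called higher with Chil4, at means of 0.123, 2.41 and 0.936 CPM. Retn, the resistin gene and a relative of Retnlg, was at 7.14, 1.98 and 0.272 CPM and in CEBPA-first fell by 4.72 on the log2 scale (edgeR adjusted p = 9.7e-10). Mmp25, a membrane-bound metalloprotease of neutrophils, fell by 3.83 there.

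Across the 11 samples, the 7 falling members followed each other closely, with Pearson's r of log2 CPM between 0.933 and 0.997 over their 21 pairs. Mmp8 had r between 0.826 and 0.897 with each of these 7. Chil3 had r between -0.849 and -0.518 with the other 8 members. These samples share 3 groups, so the group means account for much of such an r, and no test was made. The tested gene most like each member was Ano6 for Ltf (r = 0.998), Cat for Camp (0.995), Ceacam10 for Ngp (0.997), Pilrb2 for Lcn2 (0.9996), Cdkn1b for Mmp8 (0.993), Stfa2 for Mmp9 (0.999), Lpcat2 for Itgb2l (0.998), Coro2a for Chil3 (0.987) and Fermt3 for Retnlg (0.995). The genes most like the mean of the 9 standardised members were Csf1r, Birc3, Pbxip1, Sirpa and Slc2a6, with r from 0.9979 to 0.9985.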

How the data were processed

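RNA-seq of 11 samples was analysed. Per the labels and the study's methods, the authors prepared SMARTer low input libraries, sequenced single 100-base reads, trimmed with Trimmomatic, aligned with STAR to mm10 and deposited raw whole-number counts per gene. The counting tool, annotation and strand setting were not given in the sources used here. DESeq2 was the authors' test. Here, symbols were matched for 51633 of 51912 identifiers, and positions and exon lengths came from GENCODE M21 (GRCm38). Counts were filtered with filterByExpr (15703 genes left), scaled with TMM and tested with the quasi-likelihood test of edgeR 4.0.16 in R 4.3.3, in one fit of 3 groups without covariates, with Benjamini-Hochberg adjustment over all tested genes. The SE was obtained by dividing a log2 fold change by the root of its F statistic, log2 CPM used a prior count of 2, and near-identical stretches were searched with BLAST 2.17.0. Methods were tested on simulated data. The members and lists were chosen with earlier results of these data known. Among the listed genes, 2 are not reported here and were left out after their values had been seen. The counts and medians of the other secondary and tertiary granule genes, the primary granule genes and the alternatively activated macrophage markers therefore hold for the remaining genes only. Genes named by rule were the 9 members, up to 4 called genes per list with the largest change in CEBPA-first against CSF3R-only, Cebpe, Gfi1, Cebpa and Csf3r, the genes most like the members, and called genes between Camp and Ltf. Other list genes named after their values were seen are marked as such. Ptprc, Cd3e, Ncr1, Ddx3y and Xist were named to describe the samples. Alternatives were DESeq2 1.42.0, other scalings, filters and thresholds, a replicate block, and each sample left out. All intervals and count limits cover counting error or the spread between samples only.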

Additional observations from a re-analysis of the deposited data

Results flagged for a closer look

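Retnlg in CSF3R-only replicate B, at 76.3 CPM, lay apart from the other 3 samples of its group, the nearest of which was at 95.1 CPM. The gap was 0.954 of the group's range. Among the 18 sets of 4 samples examined (9 members in CSF3R-only and in CEBPA-first), 1 was set apart in this way, and about 1 in 20 is expected by chance. CSF3R-first, with 3 samples, was not examined.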

How the results depend on the processing

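Of 513 member log2 fold changes recomputed under the alternatives, 506 kept their direction and their side of the threshold, and the other 7 were those of Lcn2 in CSF3R-first against CSF3R-only given above. Members called stayed at 7 to 8, 8 and 7 in the comparisons of CSF3R-first with CSF3R-only, of CEBPA-first with CSF3R-only and of CEBPA-first with CSF3R-first, respectively, when each sample was left out. Testing against a log2 fold change of 1 (glmTreat) called 6, 8 and 6 members. Over all genes, 1045, 4244 and 2016 were called. An adjusted p alone gave 6703, 11314 and 7578, glmTreat gave 201, 2495 and 799, and a minimum of 10 counts in every sample gave 566 and 1219 in the comparisons of CSF3R-first with CSF3R-only and of CEBPA-first with CSF3R-first. In CSF3R-first against CSF3R-only the split was 711 lower and 334 higher, but 3318 and 3385 by adjusted p alone and 81 and 120 by glmTreat. By adjusted p alone the split was 5753 lower and 5561 higher in CEBPA-first against CSF3R-only, and 3812 and 3766 in CEBPA-first against CSF3R-first. The larger share of lower calls in these comparisons therefore depended on the fold threshold. Leaving out each sample gave 819 to 1435, 3893 to 4433 and 1723 to 2191. Library size scaling shifted log2 fold changes in CEBPA-first against CSF3R-only by 0.13 and its calls from 2976 lower and 1268 higher to 2610 and 1754. With the replicate letter as a block, 1218, 4279 and 2033 genes and 8, 8 and 7 members were called. The letters were taken as pairing only if every same-letter pair of deviations correlated above 0.1. This held for 7 of 10 pairs (lowest r -0.107), so the main fit has no block, although 8 of 11 samples correlated best with their own letter, a hint of pairing from the data. The number of samples and the low counts of Camp limit precision.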
